A study of Homo sapiens with 18 samples.

Results

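The genes described here are 40 genes of G2/M and mitosis, a list of cyclins, mitotic kinases, spindle and kinetochore proteins and their regulators. They and the wider lists below were picked when earlier results of these data were known, so their shares beside all genes are a description. Rows of the 40 genes were found in the deposited count matrix by gene symbol, and all 40 were present among 35044 genes. The samples were 18 RNA-seq libraries labelled as the human breast cancer cell line HCC1937, which carries mutated BRCA1. HCC1937-EV cells carried an empty vector, HCC1937-OE-BRCA1 cells had been transfected with wild-type BRCA1 beside their own truncated protein, and each line was sampled untreated (0 h) and at 12 h and 24 h of exposure to olaparib, an inhibitor of PARP enzymes (PARPi), at 10 µmol/L. Each of the 6 groups had 3 libraries, and nothing stated that these came from separate cultures, so the p-values measure the spread between libraries, which may be technical. No untreated libraries were taken at 12 h or 24 h, and the same 3 untreated libraries of a line serve both times. Olaparib and time in culture thus cannot be told apart, and whether the 0 h cells had vehicle was not known here. The comparisons addressed how the list responded to olaparib in each line, whether the lines responded differently, and how the untreated lines differed.

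Cells pass from G2 into mitosis when CDK1 bound to cyclin B becomes active, with the kinases PLK1 and the Aurora kinases acting beside it. The anaphase-promoting complex (APC/C), activated by CDC20, then marks securin and cyclin B for destruction, while the spindle checkpoint holds this step back until every chromosome is attached. Transcripts of these genes are made mainly in G2 and M, under B-MYB and FOXM1 bound through the MuvB complex, and are repressed at other times and after DNA damage by the DREAM complex, which reads a short promoter element known as the cell cycle genes homology region (CHR). CCAAT boxes, bound by NF-Y, lie in many of the same promoters.

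Promoter sequences are shown for 5 of the genes, because the list shares these motifs. In RefSeq (GRCh38.p14), a window from 250 bases before to 50 bases after the transcription start was found for 34 of the 40 genes; AURKA, FOXM1, BIRC5, UBE2C, TPX2 and TTK had no entry. TTTGAA, the CHR, was present on either strand in 24 of the 34 windows (70.6%), against 15.4% of all 27305 promoters of that length. CCAAT was present on either strand in 29 (85.3%, against 35.7%), and at least 2 CCAAT boxes in 18 (52.9%, against 11.3%). TTTGAA or a variant of it, TTCGAA, occurred together with CCAAT in 23 windows (67.6%, against 6.58%). No other form of the CHR was searched. The variant alone occurred in 1 window, that of BUB1 (2.94%, against 1.45%), and the E2F letters GCGCGAAA in 1, that of CDK1 (2.94%, against 0.546%). None of these motifs contains the letters of another. The last 130 bases before the start are printed for cyclin B2 (CCNB2, chr15:59105016-59105145), CDC20 (chr1:43358851-43358980), PLK1 (chr16:23678759-23678888), cyclin B1 (CCNB1, chr5:69167020-69167149) and KIF20A (chr5:138178982-138179111), all on the + strand. GENCODE 29 places the outermost start of each gene upstream of part or all of the stretch. Capitals mark TTTGAA and CCAAT on either strand (CCAAT reads ATTGG when it lies on the other strand).
CCNB2: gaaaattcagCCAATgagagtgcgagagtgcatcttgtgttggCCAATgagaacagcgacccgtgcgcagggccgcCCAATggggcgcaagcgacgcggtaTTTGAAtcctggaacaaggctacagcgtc
CDC20: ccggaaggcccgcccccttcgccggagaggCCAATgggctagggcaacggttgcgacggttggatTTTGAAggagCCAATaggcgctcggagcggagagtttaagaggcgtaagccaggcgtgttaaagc
PLK1: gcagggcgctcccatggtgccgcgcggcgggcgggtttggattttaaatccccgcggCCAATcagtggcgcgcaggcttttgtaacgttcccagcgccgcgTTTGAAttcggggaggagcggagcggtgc
CCNB1: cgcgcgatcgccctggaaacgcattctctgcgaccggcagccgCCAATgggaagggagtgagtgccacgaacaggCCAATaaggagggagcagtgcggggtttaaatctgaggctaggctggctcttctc
KIF20A: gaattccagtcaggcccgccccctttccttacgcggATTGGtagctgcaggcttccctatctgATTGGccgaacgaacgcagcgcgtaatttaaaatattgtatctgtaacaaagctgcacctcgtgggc
The CCNB2 stretch held 3 CCAAT boxes, whose first bases lay 120, 87 and 54 bases before the start, and a CHR at 29 bases. The CHR of PLK1 also lay 29 bases before the start, with 1 CCAAT box at 73 bases. In CDC20 the CHR, at 65 bases, lay between CCAAT boxes at 100 and 55 bases. CCNB1 and KIF20A held 2 CCAAT boxes each and no TTTGAA. These letter matches are a description and were not tested as binding sites.

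Library totals ranged from 15081973 to 17571922 counts, with a median of 16077299.5. Levels are in CPM, a gene's reads per 1000000 reads of its library, after TMM scaling of the totals. BRCA1 itself lay between 111 and 126 CPM in untreated HCC1937-EV and between 122 and 166 CPM in untreated HCC1937-OE-BRCA1, a difference that missed the threshold (log2 fold change 0.24, edgeR quasi-likelihood adjusted p = 0.0654). At 24 h of olaparib it lay between 90.9 and 99.5 CPM in HCC1937-EV and between 155 and 169 CPM in HCC1937-OE-BRCA1. The 24 h response of BRCA1 differed between the lines (log2 difference 0.54, edgeR quasi-likelihood adjusted p = 0.0230). The sum of 7 epithelial markers was 2705 to 2850 CPM in untreated HCC1937-EV and 7909 to 10267 CPM in untreated HCC1937-OE-BRCA1. Of these markers, CDH1 (0.659 ± 0.215 CPM, mean ± SD, n = 3), EPCAM (0.0206 ± 0.0356), KRT5 (0.0825 ± 0.0715) and KRT14 (0.0412 ± 0.0714) were at or near 0 in untreated HCC1937-EV. Nearly all of the sum in that line thus came from the other markers, KRT8, KRT17 and KRT18. Between the untreated lines 39.4% of the 18335 genes tested were called higher and 33.3% lower in HCC1937-OE-BRCA1, so the effect of BRCA1 and other differences between the lines cannot be told apart. Markers of other cell types summed to 99.3 to 156 CPM over the HCC1937-EV libraries, most of it COL1A1, and to 19.4 to 33.0 CPM over the HCC1937-OE-BRCA1 libraries. With markers this far apart, whether both lines come from 1 parent line was not tested, and every comparison between the lines below carries that limit.

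All 40 genes passed the filter on low counts, which keeps genes counted in enough libraries of any group. A gene is called here at a Benjamini-Hochberg adjusted p under 0.05 over all 18335 genes in edgeR's quasi-likelihood test, with no minimum fold. A further fit took out, as an offset, a trend of the counts with the GC content and length of genes, and its values are given where it changes a call or moves a value widely. NUSAP1, at 0.252 to 1.23 CPM, and PRC1, at 1.84 to 6.18 CPM, had the lowest mean levels of the list, with some PRC1 libraries overlapping those of CDC25C. In GENCODE 29 they share 62.2% and 57.6% of their exon length with the same-strand readthrough genes AC087721.2 and AC068831.7, so their levels are uncertain and summaries per library leave them out. BUB1B and CENPA share 10.2% and 6.96% of theirs with BUB1B-PAK6 and SLC35F6.

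The untreated lines differed in 26 of the 40 genes (65%), in both directions, a smaller share than among all genes. In untreated HCC1937-OE-BRCA1, 17 of the 40 genes were called higher and 9 lower than in untreated HCC1937-EV, against the 39.4% and 33.3% of all genes, and the median log2 difference of the list was 0.20, against 0.11 for all genes. Per kilobase of exon, CCNB1 had the highest level of the list in untreated HCC1937-EV (90.4 CPM per kb), followed by TPX2 (80.8), TOP2A (80.4) and CDC20 (78.5). In untreated HCC1937-OE-BRCA1, CDC20 was highest (213 CPM per kb), then TPX2 (129) and UBE2C (116). The 5 called genes with the largest differences were the spindle motor KIF11 (log2 difference −1.49 ± 0.15, ± SE) and the kinesin KIF18A (−1.43 ± 0.21), which were lower, and the APC/C activator CDC20 (1.44 ± 0.12), the CDK1 phosphatase CDC25C (1.36 ± 0.16) and the APC/C ubiquitin enzyme UBE2C (1.03 ± 0.11), which were higher. Their adjusted p-values in edgeR's quasi-likelihood test ran from 5.39e-10 for CDC20 to 3.42e-06 for KIF18A. CCNB1 was also lower (−0.92 ± 0.10), while its relative CCNB2 was higher (0.63 ± 0.11), as were the transcription factor FOXM1 (0.89 ± 0.08) and the proliferation antigen MKI67 (0.80 ± 0.15). For all of these the 3 libraries of one line lay entirely above the 3 of the other.

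In HCC1937-OE-BRCA1 the list was lower after olaparib, with CCNB1, PLK1 and CDC20 among the genes that fell most at both times. After 12 h, 17 of the 40 genes (42.5%) were called lower and none higher, where 0.605% of all genes were called lower and 1.7% higher. The log2 fold changes of 39 of the 40 genes were negative, the exception being NUSAP1, and the median was −0.43 against 0.00 for all genes. In 27 genes every treated library lay below every untreated one, against 5.87% of all genes. The count of calls was 10 without untreated HCC1937-OE-BRCA1 library 1 and 9, 9 and 8 without the 12 h libraries 1, 2 and 3. CCNB1, CCNB2, PLK1, AURKA, NEK2, CDC20, UBE2C and KIF20A were called in all 6 fits that left out a library; CDCA8 was called in none of them and the other 8 in 1 to 3.

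After 24 h in HCC1937-OE-BRCA1, 12 of the 40 genes (30%) were called lower and none higher, where 3.55% of all genes were called lower and 4.71% higher. The median of the list was −0.25 against 0.02 for all genes, and 37 of the 40 fold changes were negative. In 18 genes every treated library lay below every untreated one, against 9.87% of all genes. With a library left out, 9 to 13 genes were called, all lower except without untreated library 1, where 11 were lower and 1 higher. CDC20, PLK1, CCNB1, CENPA, BIRC5, KIF20A, AURKA, UBE2C and NEK2 were called in all 6 of these fits; CCNB2 was called in 2, and TPX2 and KIF2C in 1 each.

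In HCC1937-EV the list had calls in both directions at 24 h, and at 12 h only 8 of all 18335 genes were called. With so few calls, the 12 h count does not show that the list was unchanged. The 12 h libraries of this line differed widely in a trend with GC content, given below. After 12 h only KIF20A was called, at a lower level (2.5% of the list, where 0.0164% of all genes were called lower and 0.0273% higher), and 10 genes had an unadjusted p under 0.05. The median was −0.11 and 29 fold changes were negative. The call of KIF20A was kept in 1 of 6 fits, the one without 12 h library 1, so it rests on each of the other 5 libraries. After 24 h, 5 genes were called higher and 5 lower (12.5% each, where 8.62% of all genes were called higher and 5.12% lower), with a median of −0.08 and 23 negative fold changes. Every treated library lay below every untreated one in 8 genes at 12 h and 11 at 24 h, against 9.65% and 19.0% of all genes. The genes called lower were CENPE, CENPF, MKI67, ANLN and KIF20A, and those called higher were AURKB, BIRC5, INCENP, KIF2C and UBE2C. The number called at 24 h fell to 3 without untreated library 1, 6 without untreated library 3, and 4 and 5 without 24 h libraries 1 and 2. KIF20A, MKI67 and AURKB were called in all 6 fits, CENPE in 5 (not without untreated library 1), BIRC5 in 4, ANLN in 3, CENPF, KIF2C and UBE2C in 2 and INCENP in none.

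**Figure D1:**
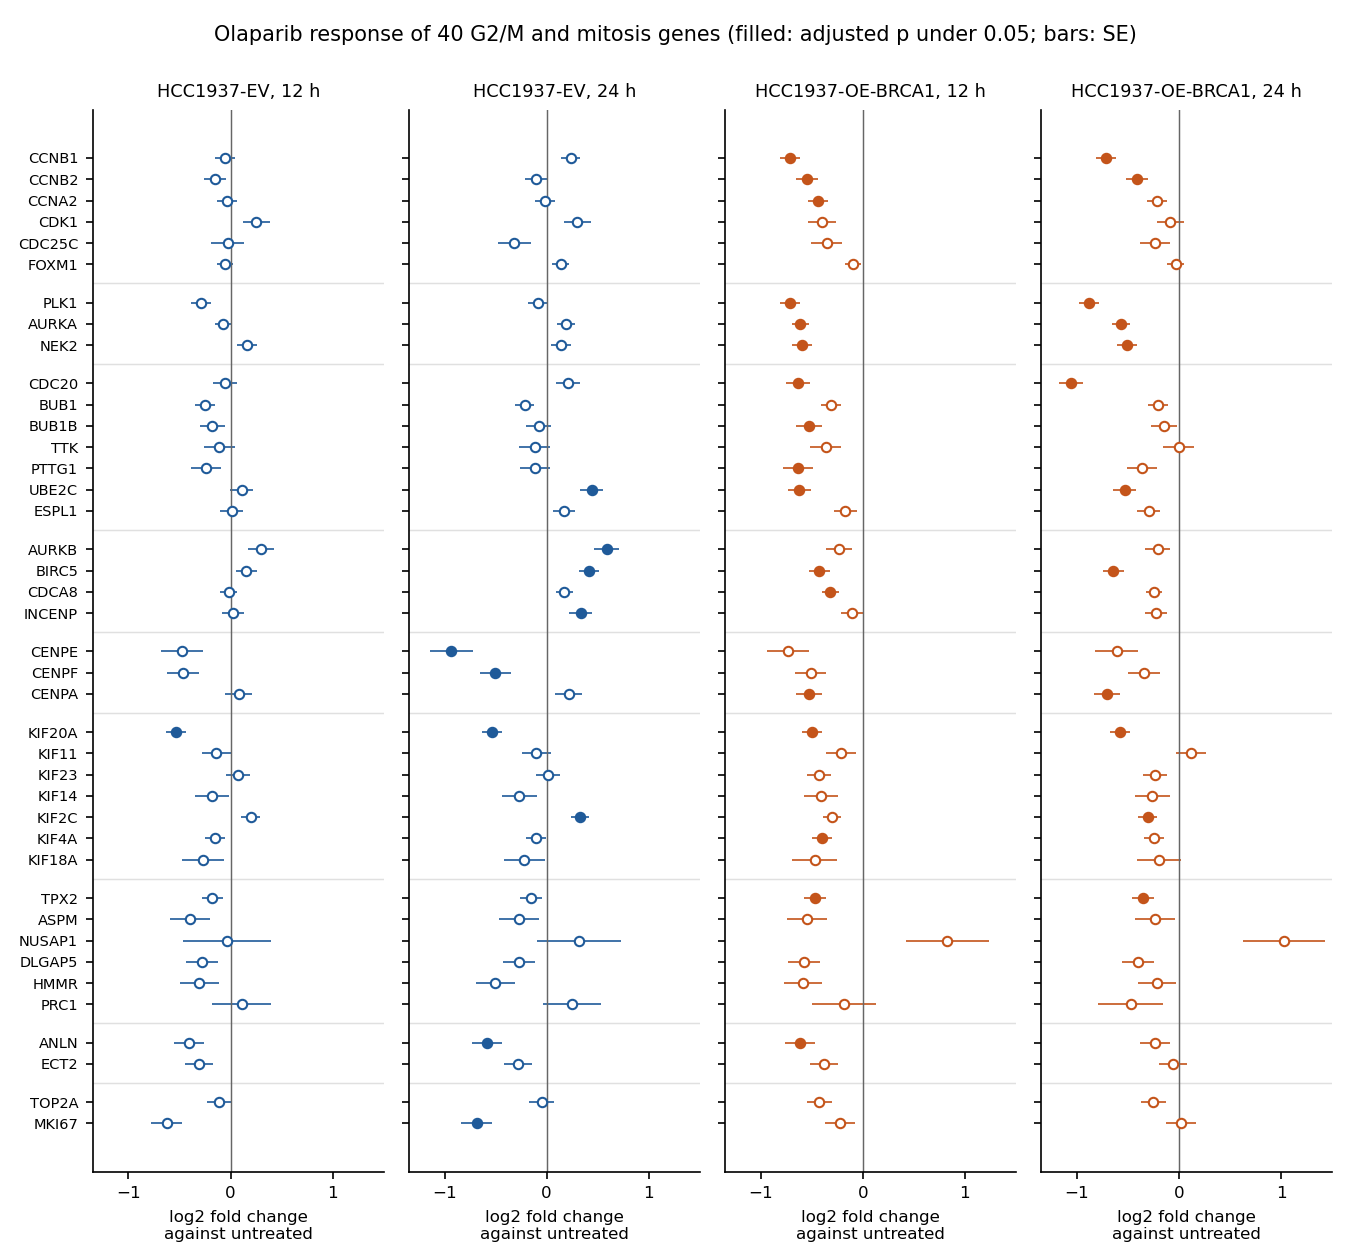
Log2 fold change against untreated cells of the same line (x axis) for the 40 genes (rows, grouped by role), at 12 h and 24 h of olaparib in HCC1937-EV (blue) and HCC1937-OE-BRCA1 (orange). Points are edgeR estimates with bars of 1 SE from 3 libraries a group, and filled points have an adjusted p under 0.05: 1 and 10 genes in HCC1937-EV, and 17 and 12, all lower, in HCC1937-OE-BRCA1.

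Among the 6 genes of mitotic entry, both B cyclins fell in HCC1937-OE-BRCA1 at 12 h and 24 h and CCNA2 fell at 12 h, while none was called in HCC1937-EV without the offset. CCNB1, the cyclin that activates CDK1 at mitotic entry, was at 122, 136 and 109 CPM in the 3 untreated HCC1937-OE-BRCA1 libraries, 77.7, 73.3 and 72.2 CPM at 12 h and 72.8, 82.2 and 68.7 CPM at 24 h. In HCC1937-EV, CCNB1 was at 234, 226 and 234 CPM untreated, 223, 210.1 and 236 CPM at 12 h and 292, 276 and 248 CPM at 24 h. All 6 treated HCC1937-OE-BRCA1 libraries lay below all 3 untreated ones, whereas in HCC1937-EV the 12 h libraries overlapped the untreated ones and the 24 h libraries lay above them. In HCC1937-OE-BRCA1 the log2 fold change of CCNB1 was −0.72 ± 0.10 at 12 h (edgeR adjusted p = 0.000115) and −0.71 ± 0.10 at 24 h (adjusted p = 7.18e-05). In HCC1937-EV the 24 h value was 0.23 ± 0.10 and was not called (adjusted p = 0.101); with the offset it was called higher (0.25, adjusted p = 0.0168).

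The other B cyclin, CCNB2, fell by less (−0.55 ± 0.11 at 12 h and −0.41 ± 0.11 at 24 h in HCC1937-OE-BRCA1). CCNA2, which acts in S phase and G2, fell at 12 h (−0.44 ± 0.10, edgeR adjusted p = 0.0168) and was at −0.22 ± 0.10 at 24 h, called with the offset only (−0.27). CDK1, the kinase that these cyclins activate, was at 90.5, 85.4 and 65.9 CPM in untreated HCC1937-OE-BRCA1, 59.95, 60.97 and 62.5 CPM at 12 h and 73.9, 79.95 and 74.4 CPM at 24 h. Its untreated libraries were widely spread and all lay above the 12 h libraries, but the change was not called (−0.40 ± 0.13, edgeR adjusted p = 0.163). In HCC1937-EV CDK1 was at 90.6, 70.03 and 83.02 CPM untreated, 109.7, 99.4 and 80.8 CPM at 12 h and 117, 90.5 and 92.8 CPM at 24 h, with overlapping groups. With the offset CDK1 was called in both lines, lower in HCC1937-OE-BRCA1 (−0.29 at 12 h and −0.24 at 24 h) and higher in HCC1937-EV (0.31 and 0.56, edgeR adjusted p = 4.83e-05 at 24 h). The difference between the lines in CDK1 at 24 h was −0.38 without the offset, not called, and −0.80 with it, called.

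FOXM1, a transcription factor that drives many genes of the list, was at 392, 376 and 412 CPM in untreated HCC1937-OE-BRCA1, 360.2, 377 and 367 CPM at 12 h and 379.7, 357 and 418 CPM at 24 h. HCC1937-EV cells had FOXM1 at 208, 216 and 210.4 CPM untreated, 204, 201 and 206 CPM at 12 h and 214, 243 and 241 CPM at 24 h. Every HCC1937-OE-BRCA1 library lay above every HCC1937-EV library, but within HCC1937-OE-BRCA1 the groups overlapped, with fold changes of −0.09 ± 0.08 (95% interval −0.25 to 0.06) and −0.03 ± 0.08 (−0.19 to 0.13). CDC25C, the phosphatase that activates CDK1, was at −0.36 ± 0.15 and −0.23 ± 0.15 in HCC1937-OE-BRCA1 and at −0.32 ± 0.16 at 24 h in HCC1937-EV, none of them called.

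PLK1, AURKA and NEK2 are grouped here as mitotic kinases. The kinases CDK1, AURKB, BUB1 and TTK are grouped elsewhere and were not called in HCC1937-OE-BRCA1 without the offset. All 3 of the group fell in HCC1937-OE-BRCA1 at both times, and none of them was called in HCC1937-EV without the offset. With it all 3 were called in HCC1937-EV at 24 h, AURKA (0.19) and NEK2 (0.23) higher and PLK1 (−0.25) lower, and PLK1 was called lower at 12 h too (−0.38, edgeR adjusted p = 0.00801). PLK1, which drives mitotic entry, centrosome maturation and cytokinesis, was at 146, 175 and 186 CPM in untreated HCC1937-OE-BRCA1, 103, 107 and 99.7 CPM at 12 h and 94.1, 92.5 and 89.3 CPM at 24 h. The HCC1937-EV libraries had PLK1 at 128, 135 and 125 CPM untreated, 104, 95.1 and 118 CPM at 12 h and 121, 127 and 117 CPM at 24 h. Untreated HCC1937-OE-BRCA1 libraries were all above their treated ones, and the fold changes were −0.71 ± 0.10 (edgeR adjusted p = 0.000118) and −0.88 ± 0.10 (adjusted p = 4.95e-06). In HCC1937-EV the 12 h libraries of PLK1 lay below the untreated ones without a call (−0.29 ± 0.10, edgeR adjusted p = 0.175) and the 24 h libraries overlapped them.

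AURKA, the Aurora kinase of centrosomes and spindle poles, was at 153, 167 and 145 CPM in untreated HCC1937-OE-BRCA1, 103, 104 and 96.99 CPM at 12 h and 105, 106 and 103 CPM at 24 h. For AURKA, the HCC1937-EV libraries were at 118, 112 and 113 CPM untreated, 111, 103 and 112 CPM at 12 h and 140.4, 132 and 118 CPM at 24 h. The line with the higher untreated level thus had the lower level at 24 h, with no overlap between the lines at either time. NEK2, a kinase that separates centrosomes, was at 134 ± 14.8 CPM (SD, n = 3) in untreated HCC1937-OE-BRCA1, 88.7 ± 2.09 CPM at 12 h and 94.4 ± 3.13 CPM at 24 h. The fold changes of AURKA were −0.61 ± 0.09 and −0.57 ± 0.09, and those of NEK2 −0.60 ± 0.10 and −0.51 ± 0.10, with edgeR adjusted p-values from 0.000169 for AURKA at 12 h to 0.00236 for NEK2 at 24 h.

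Of the 7 genes of the spindle checkpoint, APC/C and sister separation, 4 fell in HCC1937-OE-BRCA1 at 12 h (CDC20, UBE2C, PTTG1 and BUB1B) and 2 at 24 h (CDC20 and UBE2C). CDC20, which activates the APC/C and is the target of the spindle checkpoint, was at 367, 475 and 459.5 CPM in untreated HCC1937-OE-BRCA1, 302, 280.5 and 257 CPM at 12 h and 221, 215 and 191 CPM at 24 h. HCC1937-EV levels of CDC20 were 152, 166 and 162 CPM untreated, 133, 147 and 183 CPM at 12 h and 191, 190.0 and 174 CPM at 24 h. The 3 times did not overlap in HCC1937-OE-BRCA1 and each later time lay below the earlier one. The untreated lines were far apart, but at 24 h the lowest HCC1937-OE-BRCA1 library lay within the range of the HCC1937-EV libraries. CDC20 had the largest fall of the list in either line, −1.05 ± 0.12 at 24 h, which is 0.481 times the untreated level (edgeR adjusted p = 4.95e-06). Its partner UBE2C, the ubiquitin-conjugating enzyme of the APC/C, fell at both times in HCC1937-OE-BRCA1 (−0.62 ± 0.11 and −0.53 ± 0.11) and rose in HCC1937-EV at 24 h (0.44 ± 0.11, edgeR adjusted p = 0.0161, and 0.26 with the offset).

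PTTG1, the securin that the APC/C destroys, fell at 12 h in HCC1937-OE-BRCA1 (−0.63 ± 0.15, edgeR adjusted p = 0.0212), with untreated libraries at 156, 175 and 109 CPM and 12 h libraries at 98.7, 96.8 and 88.3 CPM. The spread of the untreated libraries was wide, and the call was kept in 1 of 6 fits, the one without untreated library 3. The checkpoint gene BUB1B fell at 12 h (−0.53 ± 0.13) and was at −0.14 ± 0.13 at 24 h, not called. Without the offset the checkpoint kinases BUB1 and TTK and the separase ESPL1 were called at no time in either line, the lowest value in HCC1937-OE-BRCA1 being −0.36 ± 0.15 for TTK at 12 h.

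The 4 genes of the chromosomal passenger complex, which corrects kinetochore attachments and guides cytokinesis, had opposite signs in the lines at 24 h. Of the 4, AURKB, BIRC5 and INCENP rose in HCC1937-EV at 24 h, and BIRC5 and CDCA8 at 12 h and BIRC5 at 24 h fell in HCC1937-OE-BRCA1. The survivin gene BIRC5 was at 179, 178 and 189 CPM in untreated HCC1937-EV and 271, 238 and 219 CPM at 24 h. The HCC1937-OE-BRCA1 libraries had BIRC5 at 98.3, 132 and 104 CPM untreated, 85.3, 81.4 and 81.99 CPM at 12 h and 72.99, 72.5 and 68.5 CPM at 24 h. No treated library of BIRC5 overlapped the untreated ones in either line at 24 h, the libraries being above in HCC1937-EV (0.41 ± 0.10, edgeR adjusted p = 0.0139) and below in HCC1937-OE-BRCA1 (−0.64 ± 0.10, adjusted p = 0.000445). The kinase of the complex, AURKB, was at 50.3, 57.7 and 50.3 CPM in untreated HCC1937-EV and 84.6, 81.01 and 72.1 CPM at 24 h, all higher than untreated (0.59 ± 0.12, edgeR adjusted p = 0.00687, and 0.32 with the offset). In HCC1937-OE-BRCA1 AURKB was at −0.23 ± 0.12 and −0.21 ± 0.12, called with the offset only, at 12 h (−0.25). The scaffold INCENP rose in HCC1937-EV at the edge of the threshold (0.33 ± 0.11, edgeR adjusted p = 0.0498), a call lost with the offset and on leaving out any of the 6 libraries. CDCA8, the borealin subunit, was at −0.32 ± 0.08 in HCC1937-OE-BRCA1 at 12 h (adjusted p = 0.0414 by edgeR), a call also lost on leaving out any of the 6.

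Of the 3 centromere and kinetochore genes, CENPA fell in HCC1937-OE-BRCA1, and CENPE and CENPF fell in HCC1937-EV at 24 h. CENPA, the histone H3 variant of centromeres, was at 32.1, 36.6 and 32.6 CPM in untreated HCC1937-OE-BRCA1, 26.5, 21.8 and 22.2 CPM at 12 h and 22.1, 20.1 and 19.7 CPM at 24 h, all treated libraries being lower. Its fold changes were −0.52 ± 0.13 and −0.71 ± 0.13 (edgeR adjusted p = 0.00133 at 24 h), against 0.22 ± 0.13 in HCC1937-EV at 24 h, not called. CENPE, a kinesin that moves chromosomes to the spindle equator, was at 74.8, 52.4 and 60.1 CPM in untreated HCC1937-EV and 35.9, 29.1 and 32.9 CPM at 24 h, without overlap. That was the largest fall of the list in HCC1937-EV without the offset (−0.93 ± 0.21, edgeR adjusted p = 0.00897); with it CENPE was at −0.54, next to KIF20A at −0.52. In HCC1937-OE-BRCA1 CENPE had the lowest value of the list at 12 h, but with a wide spread it was not called (−0.73 ± 0.21, edgeR adjusted p = 0.0763), other than with the offset (−0.64). The kinetochore protein CENPF was at −0.50 ± 0.15 in HCC1937-EV at 24 h (edgeR adjusted p = 0.0351), a call that held in 2 of 6 fits with a library left out and was lost with the offset.

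Of the 7 kinesins, KIF20A fell in both lines at both times. This motor of the central spindle was at 187, 192 and 182 CPM in untreated HCC1937-EV, 142, 119 and 124 CPM at 12 h and 121, 134 and 131 CPM at 24 h. For HCC1937-OE-BRCA1 KIF20A was at 228, 182 and 208 CPM untreated, 135, 154 and 149 CPM at 12 h and 134, 133 and 148 CPM at 24 h. In both lines every treated library lay below every untreated one. The fold changes were −0.54 ± 0.10 and −0.54 ± 0.10 in HCC1937-EV (edgeR adjusted p = 0.0408 and 0.00280) and −0.50 ± 0.10 and −0.58 ± 0.10 in HCC1937-OE-BRCA1 (adjusted p = 0.00450 and 0.000657). KIF2C, which depolymerizes microtubules at kinetochores, rose in HCC1937-EV at 24 h (0.33 ± 0.09) and fell in HCC1937-OE-BRCA1 at 24 h (−0.31 ± 0.09, edgeR adjusted p = 0.0391). The chromosome-arm motor KIF4A fell at 12 h in HCC1937-OE-BRCA1 (−0.40 ± 0.10, edgeR adjusted p = 0.0358). The spindle motors KIF11 and KIF18A and the cytokinesis motors KIF14 and KIF23 were not called at either time without the offset, with values from −0.47 to 0.12 in HCC1937-OE-BRCA1 and from −0.27 to 0.08 in HCC1937-EV.

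Among the 6 genes of the spindle and microtubule binding, only TPX2, which activates AURKA on the spindle, was called without the offset. It was at 540.4, 453 and 405 CPM in untreated HCC1937-OE-BRCA1, 342, 338 and 330.1 CPM at 12 h and 356, 364 and 373 CPM at 24 h, with all treated libraries lower. Its fold changes were −0.47 ± 0.11 and −0.35 ± 0.11 (edgeR adjusted p = 0.0172 and 0.0444). The spindle pole protein ASPM and the spindle proteins DLGAP5 and HMMR were at −0.55, −0.58 and −0.58 at 12 h in HCC1937-OE-BRCA1, with standard errors of 0.16 to 0.19 and no call, and were called with the offset (−0.47, −0.46 and −0.46). NUSAP1 and PRC1, whose counts are uncertain, were not called either.

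The cytokinesis scaffold ANLN fell in HCC1937-EV at 24 h and in HCC1937-OE-BRCA1 at 12 h. In HCC1937-EV it was at 276, 230.4 and 241 CPM untreated and 171, 149 and 178 CPM at 24 h, without overlap (−0.59 ± 0.15, edgeR adjusted p = 0.0152, and −0.33 with the offset). In HCC1937-OE-BRCA1 it was at 454, 319.6 and 318 CPM untreated, 216, 257 and 240.3 CPM at 12 h and 299, 300.0 and 331 CPM at 24 h, the 12 h libraries being lowest (−0.62 ± 0.15, edgeR adjusted p = 0.0257). The call of ANLN was kept in 3 of 6 fits in HCC1937-EV (lost without untreated library 1 and 24 h libraries 1 and 2) and in 2 of 6 in HCC1937-OE-BRCA1 (lost without untreated library 1 and each of the 12 h libraries). ECT2, which starts the cleavage furrow, was not called without the offset. At 12 h and 24 h it was at −0.31 and −0.28 in HCC1937-EV and at −0.38 and −0.06 in HCC1937-OE-BRCA1. Its 12 h libraries in HCC1937-OE-BRCA1 (207, 248 and 230 CPM) lay below the untreated ones (360, 273 and 258 CPM).

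MKI67, the Ki-67 antigen that coats mitotic chromosomes, fell in HCC1937-EV at 24 h and was not called in HCC1937-OE-BRCA1. It was at 353, 329 and 347 CPM in untreated HCC1937-EV, 244, 248 and 174 CPM at 12 h and 181, 214 and 243 CPM at 24 h. MKI67 in HCC1937-OE-BRCA1 was at 710.2, 479 and 607 CPM untreated, 477, 532 and 534 CPM at 12 h and 572, 534 and 711 CPM at 24 h. Treated libraries were all below untreated ones in HCC1937-EV, at −0.69 ± 0.15 at 24 h (edgeR adjusted p = 0.00760), while the groups overlapped in HCC1937-OE-BRCA1 (0.02 ± 0.15, 95% interval −0.27 to 0.31). TOP2A, the topoisomerase that untangles chromosomes, was at 470.1, 349 and 354 CPM in untreated HCC1937-OE-BRCA1, 275, 299 and 299.9 CPM at 12 h and 306, 324 and 357 CPM at 24 h. TOP2A in HCC1937-EV was at 552, 489 and 511 CPM untreated, 536, 515 and 388 CPM at 12 h and 498, 484 and 519 CPM at 24 h. The 12 h libraries of HCC1937-OE-BRCA1 lay below the untreated ones, without a call (−0.43 ± 0.12, edgeR adjusted p = 0.0736; −0.35 and called with the offset), and the HCC1937-EV groups overlapped.

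**Figure D2:**
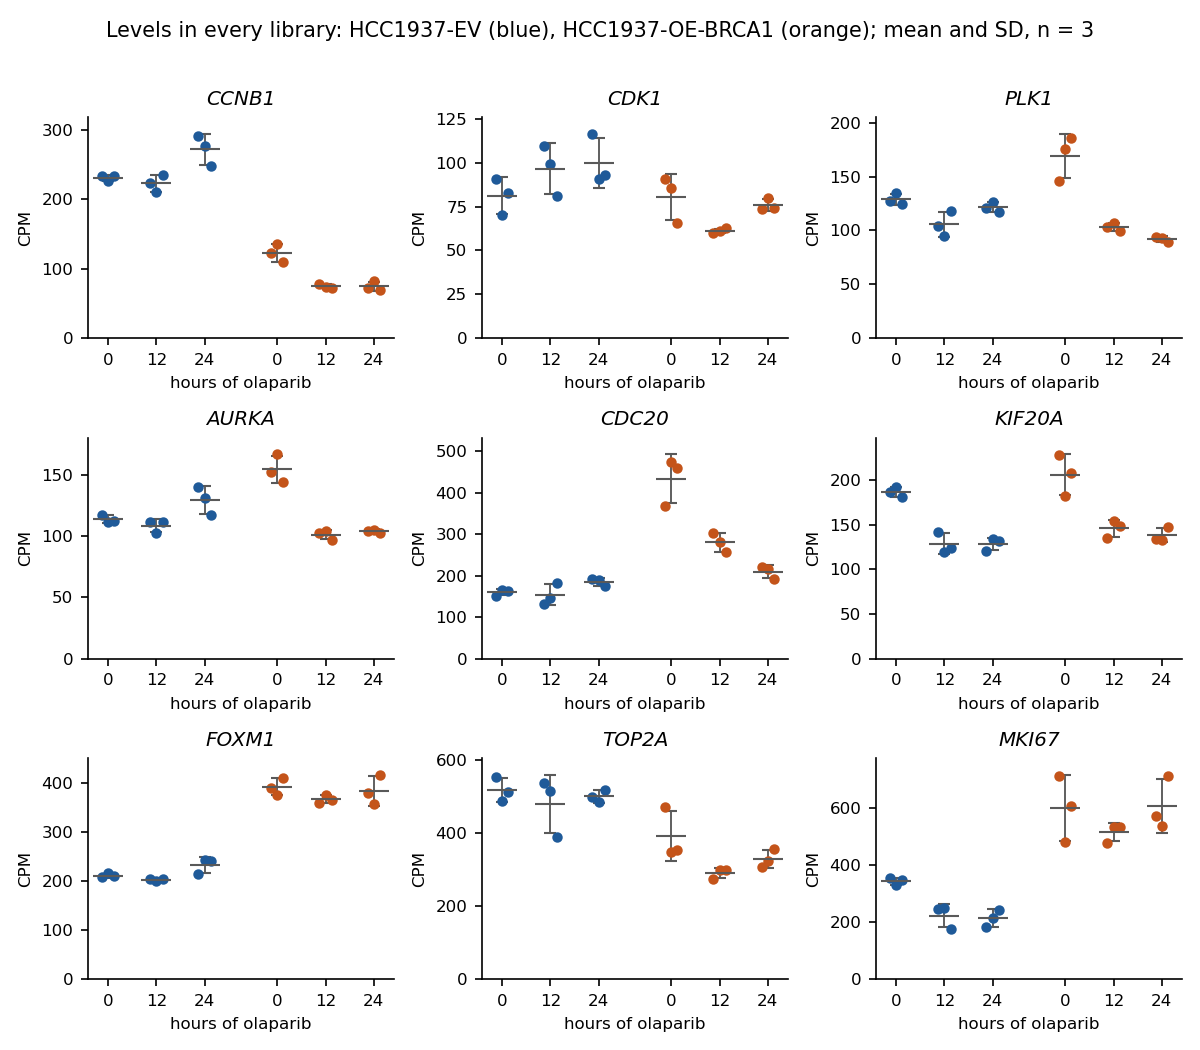
CPM (y axis, from 0) in each of the 18 libraries by hours of olaparib (x axis) for 9 genes, with HCC1937-EV in blue, HCC1937-OE-BRCA1 in orange, and bars for the mean and SD of 3 libraries. CDC20, CCNB1, PLK1 and AURKA are lower in all treated HCC1937-OE-BRCA1 libraries than in the untreated ones, KIF20A is lower in treated libraries of both lines, and FOXM1 shows no such separation in HCC1937-OE-BRCA1.

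Between 12 h and 24 h no gene of the list was called in either line, where the share of all genes called was 0.136% (higher) and 0.0436% (lower) for HCC1937-EV, and 0.791% (higher) and 0.862% (lower) for HCC1937-OE-BRCA1. At an unadjusted p under 0.05 there were 11 of the 40 genes in HCC1937-EV and 8 in HCC1937-OE-BRCA1, where 1686 and 3214 of all 18335 genes also passed. DESeq2's Wald test called 0 and 1 of the list. The median log2 fold change from 12 h to 24 h was 0.05 in HCC1937-EV and 0.13 in HCC1937-OE-BRCA1, where 31 of the 40 values were positive. The lowest unadjusted p in HCC1937-OE-BRCA1 belonged to CDC20, which was further down at 24 h (−0.42 ± 0.12, edgeR adjusted p = 0.0688), and to BUB1B (0.38 ± 0.13) and ANLN (0.38 ± 0.15), which were higher at 24 h than at 12 h. In HCC1937-EV they belonged to AURKA (0.26 ± 0.09), CCNB1 (0.29 ± 0.10) and UBE2C (0.33 ± 0.11). None of these 6 changes passed the threshold in the test used for calls here. With the offset 6 genes were called higher in HCC1937-EV, AURKA, CCNB1 and UBE2C among them, and 1 was called lower in HCC1937-OE-BRCA1. With only the libraries compared, 11 were called higher and 2 lower in HCC1937-OE-BRCA1, and none in HCC1937-EV.

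The difference between the lines in their response was tested as an interaction, the fold change in HCC1937-OE-BRCA1 minus that in HCC1937-EV. At 12 h, 4 of the 40 genes (10%) had a more negative response in HCC1937-OE-BRCA1 and none a more positive one, where 0.142% and 0.376% of all genes were called. These were NEK2 (−0.75 ± 0.14, edgeR adjusted p = 0.00986), UBE2C (−0.73 ± 0.16, 0.0400), CCNB1 (−0.66 ± 0.14, 0.0239) and AURKA (−0.54 ± 0.12, 0.0477). The median difference was −0.30 and 37 of the 40 differences were negative. NEK2 was called in all 12 fits that left out a library, CCNB1 in 6, UBE2C in 4 and AURKA in 2. Without untreated HCC1937-OE-BRCA1 library 1 the count was 9. It was 1 without any one of the untreated HCC1937-EV libraries, untreated HCC1937-OE-BRCA1 library 2 or HCC1937-OE-BRCA1 12 h libraries 2 and 3, and 2 without HCC1937-EV 12 h library 3 or HCC1937-OE-BRCA1 12 h library 1.

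At 24 h the lines differed in 14 genes, 13 with a more negative response in HCC1937-OE-BRCA1 (32.5%, where 11.2% of all genes were called lower) and 1, MKI67, with a more positive one (2.5%, where 8.16% were called higher). Without the offset the largest differences were those of CDC20 (−1.26 ± 0.16, edgeR adjusted p = 0.000111), BIRC5 (−1.06 ± 0.15, 0.000170), UBE2C (−0.97 ± 0.16, 0.000764), CCNB1 (−0.95 ± 0.14, 0.000228) and CENPA (−0.92 ± 0.18, 0.00262). With the offset that of CDC20 was −0.83, smaller than those of BIRC5 (−1.001) and CCNB1 (−0.97), as its HCC1937-EV value at 24 h went from 0.21 to −0.09, neither called. The differences of AURKB and MKI67 were then −0.41 and 0.43. PLK1, AURKA, NEK2 and all 4 passenger complex genes were among the 13, together with KIF2C and ESPL1. CDC20, CCNB1, NEK2, PLK1, BIRC5, CENPA, AURKB, UBE2C, AURKA and KIF2C were called in all 12 fits that left out a library. In these fits MKI67 (0.70 ± 0.21) was called in 8 of 12, INCENP in 8, CDCA8 in 9 and ESPL1 in 4. Without untreated HCC1937-OE-BRCA1 library 1, 4 genes had a more positive response in HCC1937-OE-BRCA1 and 13 a more negative one. The median difference of the list was −0.20 against 0.05 for all genes. KIF20A differed by 0.04 at 12 h (95% interval −0.23 to 0.31) and −0.04 at 24 h (−0.30 to 0.23), not called.

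**Figure D3:**
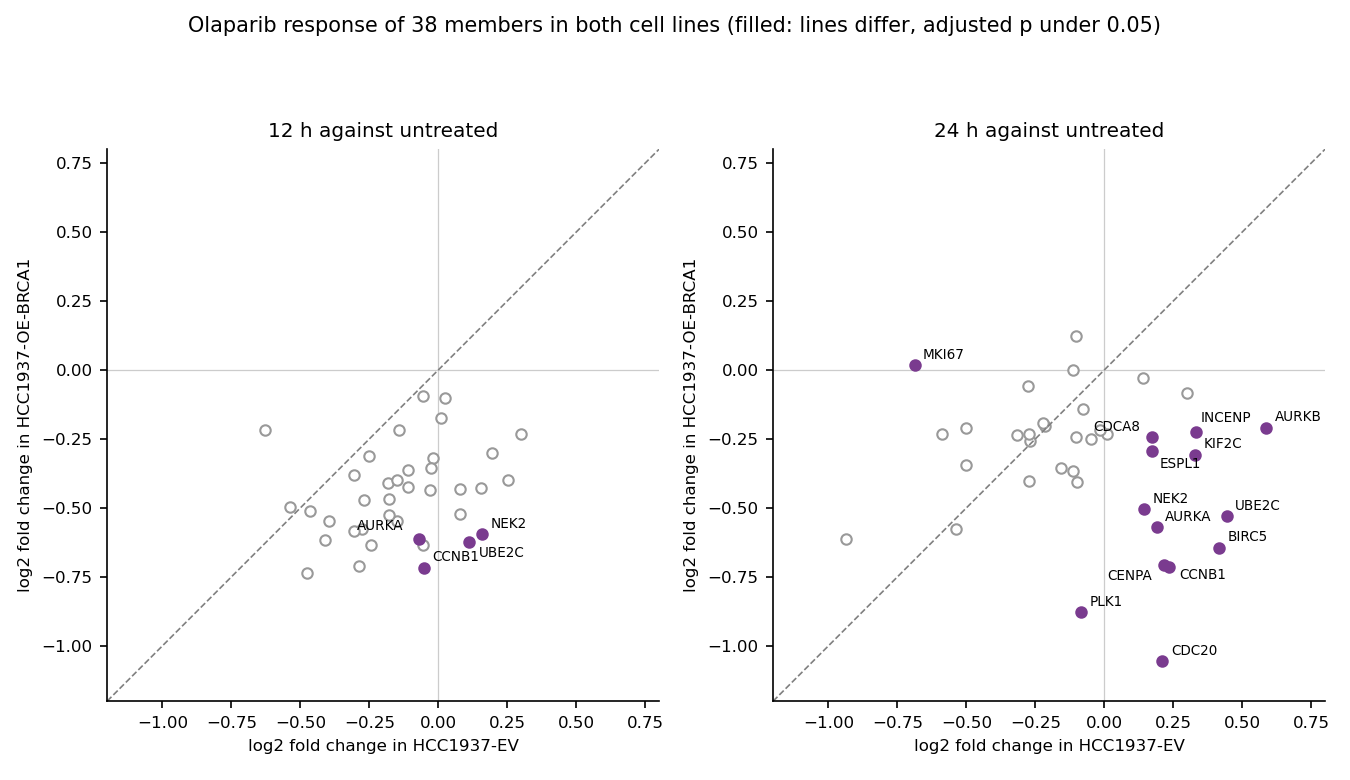
Log2 fold change against untreated in HCC1937-EV (x axis) and HCC1937-OE-BRCA1 (y axis) for 38 genes (NUSAP1 and PRC1 left out) at 12 h and 24 h, with the diagonal of equal response dashed. Filled, named points are genes whose difference between lines had an adjusted p under 0.05, 4 at 12 h and 14 at 24 h; all but MKI67 lie below the diagonal.

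Each library was also summarised by the median, over the 38 genes, of its log2 difference from the untreated mean of its line. This median was −0.49, −0.39 and −0.44 in the 12 h libraries of HCC1937-OE-BRCA1, with 38, 38 and 37 of the 38 genes below the untreated mean, and −0.33, −0.26 and −0.21 in the 24 h libraries. The untreated libraries of the line lay at 0.16, −0.03 and −0.12, above all 6 treated ones. In HCC1937-EV the 12 h libraries lay at 0.01, −0.13 and −0.23 and the 24 h libraries at −0.04, −0.12 and −0.06, overlapping the untreated libraries at 0.08, −0.07 and −0.01. Fewer cells in G2 and mitosis and less of these transcripts in each such cell cannot be told apart in these bulk samples.

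**Figure D4:**
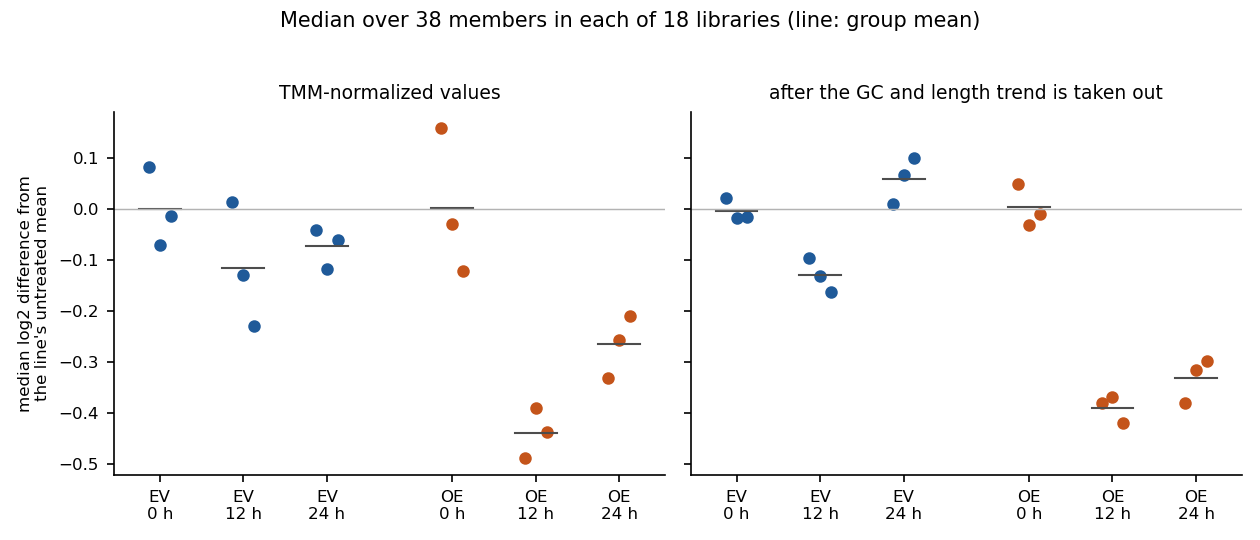
Median log2 difference from the untreated mean of the same line (y axis) over 38 genes in each of the 18 libraries (points, with the group mean as a line), by line and hours of olaparib. On TMM-normalized values (left panel) the HCC1937-OE-BRCA1 libraries lie between −0.49 and −0.21 once treated, and after a trend with GC content and length is taken out (right panel) between −0.42 and −0.30.

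Libraries differed in a trend with the GC content of genes, and this trend moved with some comparisons. The Spearman correlation of a gene's deviation with its GC content was −0.61 to −0.24 in the untreated and 0.30 to 0.64 in the 24 h libraries of HCC1937-EV. It was −0.61 to 0.58 in the untreated and −0.47 to −0.31 in the 24 h libraries of HCC1937-OE-BRCA1. The 12 h libraries lay at −0.62, −0.22 and 0.67 in HCC1937-EV and at 0.58, 0.19 and 0.23 in HCC1937-OE-BRCA1. Over the 38 genes, which share these libraries and have a median GC content of 45.0%, the 24 h fold change correlated with GC content at r = 0.55 in HCC1937-EV and −0.39 in HCC1937-OE-BRCA1. Over all 18076 genes with a known GC content, r was 0.31 and −0.20, so the slope was not particular to the list. In HCC1937-EV the median fold change at 24 h was −0.22 in the 19 genes below the median GC content and 0.17 in the 19 above it. With GC content and length taken out as an offset, HCC1937-EV had 10 genes called higher and 6 called lower at 24 h, with a median of 0.06, where 8.64% and 5.49% of 18076 genes were called. At 12 h it had 1 higher (CDK1) and 5 lower (KIF20A, CDC20, PLK1, MKI67 and ANLN), where 0.526% and 0.432% were called. TOP2A then changed direction and was called higher in HCC1937-EV (0.25, edgeR adjusted p = 0.00505), and CENPF and INCENP were no longer called (−0.15 and 0.10). Beside TOP2A, the genes called at 24 h with the offset alone were CCNB1, CDK1, AURKA, NEK2 and KIF23, higher, and PLK1 and HMMR, lower.

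In HCC1937-OE-BRCA1 the fall of the list was present with and without this offset. With it, 31 of the 40 genes were called lower at 12 h and 29 at 24 h, none higher, with medians of −0.38 and −0.34. Of the 18076 genes, 2.54% and 7.51% were called lower and 3.63% and 8.63% higher. All 17 genes called at 12 h and all 12 called at 24 h remained called. Called with the offset alone at both times were CDK1, BUB1, ESPL1, CENPE, CENPF, TOP2A, KIF14, KIF23, ASPM, DLGAP5, HMMR and ECT2. The difference between lines was called in 12 genes at 12 h, all more negative in HCC1937-OE-BRCA1, and in 23 genes at 24 h, 22 of them more negative, where 1.57% and 10.3% of all genes were called lower and 1.72% and 7.85% higher. CDCA8 (−0.27, edgeR adjusted p = 0.0529) and INCENP (−0.21, 0.332) were the genes whose 24 h difference was lost.

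**Figure D5:**
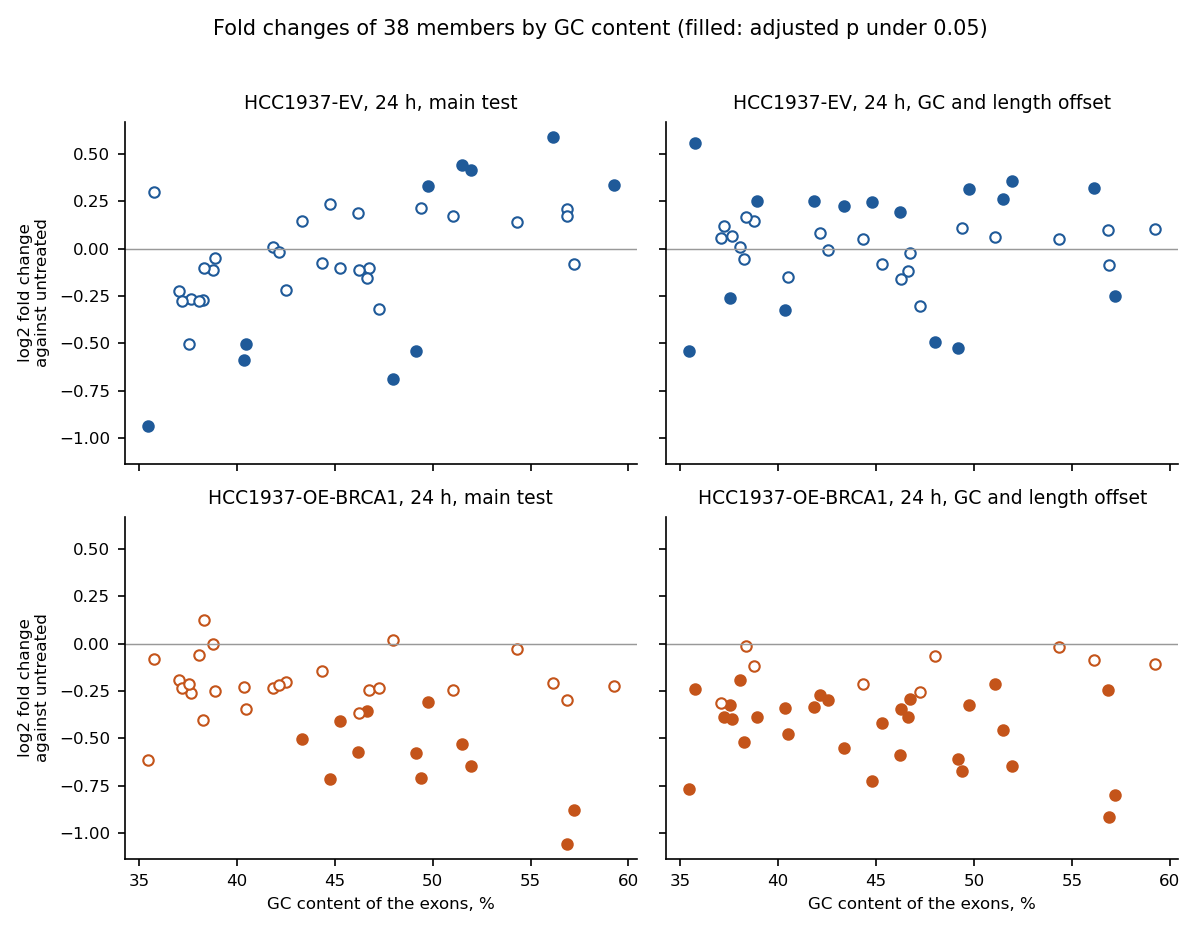
Log2 fold change at 24 h (y axis) against the GC content of the exons in percent (x axis) for 38 genes, in HCC1937-EV (top, blue) and HCC1937-OE-BRCA1 (bottom, orange), without (left) and with (right) the GC and length offset; filled points have an adjusted p under 0.05. The slope seen at left (r = 0.55 and −0.39) is near 0 at right (r = 0.03 and −0.08), where the HCC1937-OE-BRCA1 genes lie below 0.

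The size of the fall was compared, as a description, with the promoter letters. In HCC1937-OE-BRCA1 at 12 h the median log2 fold change was −0.43 in the 24 genes with TTTGAA and −0.47 in the 10 genes without it. CCNB1 and KIF20A, whose printed stretches hold no TTTGAA, and CCNB2, CDC20 and PLK1, whose stretches do, were all called lower at that time. As forms of the CHR other than TTTGAA and TTCGAA were not searched, a gene without TTTGAA may still hold one. Whether the fall goes with the CHR was not tested.

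A wider list held 81 other G2/M genes. In HCC1937-OE-BRCA1, 6 of the 81 (7.41%) fell at 12 h (median −0.25), where 0.605% of all genes fell, and 16 (19.8%) fell and 2 rose at 24 h (median −0.06), where 3.55% fell and 4.71% rose. With the offset 29 fell at 12 h, where 2.54% of all genes fell. At 24 h 29 fell and 6 rose with it, where 7.51% of all genes fell and 8.63% rose. UBE2S, the chain-elongating ubiquitin enzyme of the APC/C, fell furthest, at −0.80 ± 0.16 at 12 h and −1.10 ± 0.16 at 24 h (edgeR adjusted p = 0.000138), from 391, 643 and 471 CPM untreated to 232, 259 and 213 CPM at 24 h. All treated libraries of UBE2S lay below the untreated ones. At 12 h DEPDC1B (−0.65 ± 0.14), DEPDC1 (−0.60 ± 0.15) and the chromatin protein HMGB2 (−0.51 ± 0.11) followed, and at 24 h SAPCD2 (−1.02 ± 0.15), the microtubule protein PSRC1 (−0.95 ± 0.13) and PIMREG (−0.81 ± 0.14). In HCC1937-EV 11 of the 81 (13.6%) rose and 2 (2.47%) fell at 24 h (median 0.02), where 8.62% of all genes rose and 5.12% fell. These were led by the kinetochore genes SPC24 (0.76 ± 0.14) and CENPW (0.65 ± 0.17), the CDK subunit CKS1B (0.65 ± 0.15) and UBE2S (0.49 ± 0.16), of which SPC24 was at 0.50 and UBE2S at 0.18, not called, with the offset. None of the 81 was called in HCC1937-EV at 12 h without the offset, and 2 with it, where 0.526% of all genes were called higher and 0.432% lower.

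Of 16 genes that brake G2 and mitosis, 8 (50%) rose and 2 (12.5%) fell in HCC1937-EV at 24 h (median 0.46), where 8.62% and 5.12% of all genes did. In HCC1937-OE-BRCA1 1 (6.25%) rose at 12 h, where 1.7% of all genes did. At 24 h 1 (6.25%) rose and 2 (12.5%) fell in that line, where 4.71% and 3.55% of all genes did. With the offset 6 rose and 0 fell in HCC1937-EV at 24 h, with a median of 0.19, where 8.64% and 5.49% of all genes did. CDKN1A, the CDK inhibitor p21, was at 9.44, 10.8 and 13.1 CPM in untreated HCC1937-EV, 15.9, 17.1 and 17.7 CPM at 12 h and 24.6, 21.8 and 23.6 CPM at 24 h. The HCC1937-OE-BRCA1 levels of CDKN1A were 66.1, 73.6 and 79.8 CPM untreated, 118, 100.3 and 114 CPM at 12 h and 114, 113 and 105 CPM at 24 h. Treated libraries were above untreated ones in both lines, with 1.07 ± 0.12 at 24 h in HCC1937-EV (edgeR adjusted p = 6.29e-05) and 0.60 ± 0.11 and 0.60 ± 0.11 in HCC1937-OE-BRCA1 (adjusted p = 0.00238 and 0.00150). GADD45A, a DNA damage gene that inhibits CDK1, rose in HCC1937-EV (0.78 ± 0.16) and fell in HCC1937-OE-BRCA1 (−0.60 ± 0.16). In HCC1937-EV the CDK inhibitor CDKN1C (0.93 ± 0.23) and the G2 arrest gene RPRM (0.82 ± 0.22) also rose; with the offset neither was called (0.51 and 0.44), and GADD45A was at 0.48.

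Of 13 genes of the DREAM and B-MYB complexes, none was called at 12 h in either line or at 24 h in HCC1937-EV, and 4 (30.8%) rose and 1 (7.69%) fell in HCC1937-OE-BRCA1 at 24 h, where 4.71% of all genes rose and 3.55% fell. With the offset 1 rose and 2 fell in HCC1937-EV at 24 h (all genes: 8.64% and 5.49%). In HCC1937-OE-BRCA1 at 24 h 3 rose and 1 fell with the offset (all genes: 8.63% and 7.51%), the median going from 0.24 to 0.06. Those called without it were the MuvB subunit LIN54 (0.59 ± 0.16), the pocket protein p107 (RBL1, 0.51 ± 0.14), the E2F partner TFDP2 (0.43 ± 0.09) and the repressor E2F4, which fell (−0.39 ± 0.11); RBBP4 was the other that rose (0.27 ± 0.08), a call lost with the offset, where E2F4 was at −0.25. B-MYB itself (MYBL2) was at −0.09 ± 0.09 and −0.18 ± 0.09 in HCC1937-OE-BRCA1, not called.

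A list of 54 DNA replication and S-phase genes, measured in the same libraries, had no member called lower in HCC1937-OE-BRCA1. In that line none of the 54 was called at 12 h (median 0.03) and 13 (24.1%) rose at 24 h (median 0.20), where 4.71% of all genes rose and 3.55% fell. With the offset 25 rose at 24 h, where 8.63% of all genes did. The largest rises were those of cyclin E2 (CCNE2, 0.83 ± 0.16), the checkpoint adaptor CLSPN (0.63 ± 0.13) and the ribonucleotide reductase subunits RRM2 (0.56 ± 0.09) and RRM1 (0.56 ± 0.11). In HCC1937-EV 6 (11.1%) rose and 11 (20.4%) fell at 24 h (median −0.11), where 8.62% and 5.12% of all genes did, with thymidine kinase TK1 at 0.76 ± 0.16, cyclin E1 (CCNE1) at −0.90 ± 0.14 and CCNE2 at −0.76 ± 0.17 (TK1 0.33 and CCNE2 −0.51 with the offset). CCNE2 rose in one line and fell in the other, its libraries at 24 h lying at 55.05, 56.00 and 56.96 CPM in HCC1937-OE-BRCA1 and 11.8, 11.4 and 12.7 CPM in HCC1937-EV. Epithelial markers also moved in HCC1937-OE-BRCA1 at 24 h, where 4 of 7 (57.1%; KRT5, KRT8, KRT18 and CDH1) fell, against 3.55% of all genes, and their sum was 6299 to 6966 CPM, and none was called at 12 h. Their part in the change of the mitotic genes was not tested.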

How the data were processed

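RNA-seq was done on TRIzol-extracted total RNA with NEBNext Ultra II libraries. According to the submitters' processing notes, HISAT2, featureCounts and DESeq2 were used with GRCh38 (hg38); versions, annotation and whether counting used strand are not given in the sources used here. The deposited values are the authors' raw read counts per gene (35044 genes, 18 libraries), with rows at a total under 2 already absent. Groups came from the sample titles, since the treatment label reads olaparib for untreated libraries too and the genotype label of HCC1937-EV reads WT.

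Of the identifiers, 34966 (99.78%) matched a symbol. Counts were fitted with edgeR 4.0.16 (R 4.3.3): filterByExpr by group, TMM, 1 mean per group over all 18 libraries, and the quasi-likelihood test with Benjamini-Hochberg adjustment over 18335 genes. The design had been written for counts and was used unchanged. Standard errors are on the log2 scale, and the biological coefficient of variation was 12.9%. Depth of 15081973 to 17571922 counts puts the limit that a count of 0 allows near 0.2 CPM, for counting error only. Scripts were tested on simulated data. Exon length, GC content and overlaps came from GENCODE 29, promoters from RefSeq GRCh38.p14. The tables were built with Python 3.11.15, numpy 2.4.6, pandas 2.3.3 and matplotlib 3.10.9.

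Named genes were 9 given in every library whatever they did, the 5 called genes with the largest change per comparison (with none called, the 3 with the lowest p), and up to 4 called genes per wider list. RBBP4, MYBL2 and the keratins were named after their values were seen. The 40 genes and the other lists were chosen with earlier results of these data known. The alternatives were DESeq2 1.42.0 size factors and Wald test, no filter, at least 10 counts in every library, only the libraries compared, a replicate block, a GC and length offset (splines of 6 degrees of freedom, 18076 genes), a minimum log2 change of 0.5 and leaving out each library.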

Additional observations from a re-analysis of the deposited data

Results flagged for a closer look

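The results listed here were picked because the change from untreated to olaparib differed between the lines in the test of the difference itself (fold change in HCC1937-OE-BRCA1 minus that in HCC1937-EV, edgeR quasi-likelihood test, adjusted p under 0.05). At 12 h the log2 differences were −0.6634 for CCNB1, −0.5412 for AURKA, −0.7544 for NEK2 and −0.7348 for UBE2C. At 24 h they were −0.9474 for CCNB1, −1.2647 for CDC20, −0.7946 for PLK1, −0.7597 for AURKA and −0.6488 for NEK2. For the passenger complex at 24 h they were −0.7959 for AURKB, −1.059 for BIRC5, −0.4159 for CDCA8 and −0.5581 for INCENP. The differences of CDCA8 and INCENP were not called with the GC and length offset, and no 12 h difference was called with only the libraries compared. CENPA differed by −0.9237, KIF2C by −0.6354, UBE2C by −0.9726 and ESPL1 by −0.4666 at 24 h. MKI67 was the gene with a positive difference, 0.7044, having fallen in HCC1937-EV. The lines also differ in most other genes and in their epithelial markers, so BRCA1 and line cannot be told apart in these differences.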

How the results depend on the processing

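The median of the list stayed below 0 in HCC1937-OE-BRCA1 at 12 h and 24 h in every alternative run, while the number of genes called moved with the setting. Called at 12 h in HCC1937-EV (1 gene) were 0 with DESeq2 size factors, with only the libraries compared and with the replicate block, 2 with DESeq2's Wald test, 6 with no filter and 6 with the GC and length offset. Called at 24 h in HCC1937-EV (10) were 19 with only the libraries compared, 16 with the offset and 6 above a log2 change of 0.5. Called at 12 h in HCC1937-OE-BRCA1 (17) were 6, 31 and 11 under the same 3 settings, and at 24 h (12) 29 with the offset. From 12 h to 24 h (0 in each line) the offset gave 6 in HCC1937-EV and 1 in HCC1937-OE-BRCA1, where Wald, no filter and at least 10 counts gave 1 each and only the libraries compared gave 13. The difference between lines at 12 h (4) was called in 9 with Wald, 0 with only the libraries compared and 12 with the offset, and at 24 h (14) in 23 with the offset. Offset medians were 0.0615 for HCC1937-EV at 24 h, 0.1451 and 0.0430 from 12 h to 24 h in HCC1937-EV and HCC1937-OE-BRCA1, and −0.3407 for the 24 h difference between lines. The untreated median was 0.3154 with at least 10 counts. TOP2A at 24 h in HCC1937-EV reversed with the offset, to 0.2487. The causes were not tested, beyond fewer samples where libraries were dropped.

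Leaving out 1 library gave these ranges of calls: 0 to 2 and 3 to 9 in HCC1937-EV at 12 h and 24 h, 8 to 21 and 9 to 13 in HCC1937-OE-BRCA1, 0 from 12 h to 24 h in both lines, 26 to 28 between untreated lines, and 1 to 9 and 10 to 17 for the difference at 12 h and 24 h. The medians ranged over −0.2234 to −0.0755 and −0.0944 to −0.0205 in HCC1937-EV, −0.5131 to −0.3261 and −0.3244 to −0.1907 in HCC1937-OE-BRCA1, −0.0209 to 0.1548 and 0.0999 to 0.1851 from 12 h to 24 h, 0.0774 to 0.27 between untreated lines, and −0.3963 to −0.1696 and −0.2752 to −0.0996 for the differences. Untreated HCC1937-OE-BRCA1 library 1 gave the extremes 0.0774, −0.1696 and −0.0996, and HCC1937-EV 12 h library 1 gave −0.2234 and 0.1548.

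In every pair of groups at least 1 of the 3 correlations between the deviations of same-numbered libraries was 0.00866 or lower, so the numbers were not taken as pairs. With the replicate block 10 and 0 genes were called in HCC1937-EV at 24 h and 12 h, 18 and 12 in HCC1937-OE-BRCA1, 27 between untreated lines and 4 and 14 for the differences.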
